A study of Mus musculus with 12 samples.

Results

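Kidney RNA was sequenced in mice, and 8 genes of SUMO conjugation were followed: the modifiers Sumo2 and Sumo3, the activating enzyme subunits Sae1 and Uba2, and the ligases Pias1, Pias2, Pias3 and Pias4. They were chosen by name, and each of the 8 names matched 1 of the 54532 genes listed in both tables of expression values. The 12 libraries formed 4 groups of 3 mice. The ureter was tied on 1 side (UUO, unilateral ureteral obstruction) in β-catenin knockout mice and in controls of wild type. Mice labelled CD44 knockout and their wild-type controls had undergone UIRI (unilateral ischemia-reperfusion injury). β-catenin was deleted in tubular cells, with loxP-flanked alleles and a Cre transgene under the Ksp-cadherin promoter. The study's staining was described as showing loss of β-catenin in distal and connecting tubules and in most proximal tubules, while its discussion puts the loss in proximal tubules lower. All mice were of the C57BL/6 strain. All groups had an injured kidney and none was a sham group. The sample labels give neither an age nor a time after surgery. Tests compared mice within a table, because the tables were scaled separately. Orders and ranges over all 12 libraries set levels from both tables side by side as a description.

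SUMO proteins are small modifiers that are joined to lysines of target proteins. Sae1 and Uba2 form the heterodimer that activates them, and ligases such as the Pias proteins speed their transfer to the target. Senp proteases process the precursors and remove the modifier again. Sumo2 and Sumo3 are close relatives that antibodies often cannot separate. The question asked of these mice was whether loss of tubular β-catenin changes the expression of SUMO genes, Sumo3 above all.

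None of the 8 genes passed the test in either knockout, against 10.6% of all genes after UUO and 6.21% after UIRI. The share after UIRI, 1001 genes, is not stable, since 1 to 10 genes were called without any single library other than CD44 knockout replicate 2, 2180 without that one, and 0 with the replicate block. After UUO, where 1709 genes were called, leaving out 1 library gave between 228 (wild-type replicate 2) and 2449 (β-catenin knockout replicate 3). Among the 8 genes, Sumo3 had the highest log2 fold change in β-catenin knockout mice, 0.40, and Pias4 was next with 0.28. Neither passed the test. For both, every knockout mouse was above every wild-type mouse, as for 19.6% of all genes. Uba2 had every knockout mouse below every wild-type mouse, as did 15.9% of all genes. Sumo2 ranged more than 10-fold between mice of all groups without following the knockout. In each of the 4 groups, the mouse with the most Sumo2 reads had the fewest of Gm10241, a processed copy identical over the coding bases.

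Values are FPKM, which are fragment counts per kilobase of a gene and scaled for library depth. Reads assigned to genes were between 15940405 and 20737443 per library. The targeted genes were checked first. Ctnnb1, which encodes β-catenin, was at 84.7, 71.4 and 71.7 FPKM in β-catenin knockout mice and 91.2, 86.7 and 98.5 FPKM in wild-type mice after UUO. The groups did not overlap, and the log2 fold change of −0.28 did not pass the test (limma, adjusted p = 0.189). Cd44 was at 19.0, 11.97 and 13.9 FPKM in the libraries labelled CD44 knockout and 19.9, 16.3 and 17.8 FPKM in wild-type mice after UIRI. This log2 fold change of −0.27 did not pass the test either (limma, adjusted p = 0.339), and the groups overlapped, so that these values do not check the label. Cd44 was called lower, without overlap, in β-catenin knockout mice after UUO (log2 fold change −0.68, limma adjusted p = 0.0181). Ctnnb1 was higher without overlap in the libraries labelled CD44 knockout (log2 fold change 0.23) and did not pass (limma adjusted p = 0.188). A gene's value sums all exons and all kidney cells, and fewer cells of a type cannot be told apart from less RNA per cell. Markers of tubule, macrophage, fibroblast and endothelial cells were all above 0 in all 12 libraries.

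Sumo2 and its copies need their sequences beside their values. Sumo2 (ENSMUSG00000020738) lies on the minus strand of chromosome 11 of GRCm38, from 115523102 to 115536276. Of the 1002 windows of 50 bases in its principal transcript, 303 (30.2%) occurred letter for letter in transcripts of 13 other genes, most of them processed pseudogenes. One of them, Gm10241 (ENSMUSG00000084838, chromosome 16, 20176727 to 20177012), was singled out after its values were seen. The 285 coding bases of Sumo2, without the stop codon, are printed from the GENCODE transcript because Gm10241 holds the same bases with 0 differences. Letters are in lower case throughout, since no base differs.

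Sumo2 coding bases and Gm10241 bases 1 to 285: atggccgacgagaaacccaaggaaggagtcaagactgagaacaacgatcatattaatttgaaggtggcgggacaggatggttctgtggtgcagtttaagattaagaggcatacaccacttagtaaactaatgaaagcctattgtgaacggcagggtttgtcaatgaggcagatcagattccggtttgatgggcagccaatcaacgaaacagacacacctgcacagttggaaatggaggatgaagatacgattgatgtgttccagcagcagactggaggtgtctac

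Sumo2 was at 3.41, 3.87 and 25.4 FPKM in β-catenin knockout mice and 32.3, 26.6 and 3.25 FPKM in wild-type mice after UUO. It was at 5.79, 33.9 and 5.06 FPKM in the libraries labelled CD44 knockout and 30.3, 5.89 and 15.1 FPKM in wild-type mice after UIRI. High and low mice thus stood side by side in every group, and the groups overlapped in both tables. Sumo2 had a log2 fold change of −0.93 in β-catenin knockout mice (standard error 0.94, 95% interval −3.15 to 1.29, limma adjusted p = 0.548) and −0.42 in the libraries labelled CD44 knockout (standard error 0.80, interval −2.31 to 1.47, adjusted p = 0.772). Neither passed the test, and the intervals are wide.

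The spread of Sumo2 was unusual. Its highest value was 10.4 times its lowest, a ratio reached by 63 of the 8947 genes that were above 3 FPKM in every library. Its standard deviation within groups was 1.41 on the log2(FPKM + 1) scale. Among 2749 protein-coding genes of like mean level the median was 0.15, and 99.96% of them had a smaller value. The other 7 members had standard deviations between 0.08 and 0.21.

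Gm10241 mirrored this spread. In β-catenin knockout mice 102, 107 and 782 reads were assigned to Sumo2 and 642, 480 and 161 to Gm10241. In wild-type mice after UUO the reads were 1087, 865 and 96 for Sumo2 and 107, 279 and 585 for Gm10241. In each of the 4 groups, the mouse with the most Sumo2 reads had the fewest Gm10241 reads.

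The same held after UIRI. The libraries labelled CD44 knockout had 174, 971 and 173 reads of Sumo2 and 796, 145 and 764 of Gm10241. In wild-type mice the reads were 882, 188 and 517 for Sumo2 and 261, 710 and 715 for Gm10241. The third of these wild-type mice had many reads of both.

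Summed over Sumo2 and the 13 genes that share windows with it, the CPM (reads scaled to each library's assigned total) ranged from 35.1 to 73.1, a ratio of 2.08, where Sumo2 alone ranged from 5.70 to 61.7, a ratio of 10.8. On this sum, chosen after the values were seen, knockout less wild-type mice gave −0.40 in log2 after UUO (exact permutation test, two-sided, p = 0.3, n = 3 mice a group) and −0.20 after UIRI (p = 0.5, exact permutation test). These do not pass, and 3 mice against 3 cannot give a p below 0.1. Of the 1002 windows of Sumo2, 237 occurred in Gm10241, and reads of identical sequence can be assigned to either gene. Sumo2 values in the tables are uncertain in this respect. Whether such reads account for the spread was not tested. How the counting treated such reads is not given in the sources used here. The only pseudogene row whose description names SUMO, AC162923.1, held 1 read in 1 library. Rows under other names, such as the pseudogenes among the 13 genes above, were not found by this search.

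**Figure D1:**
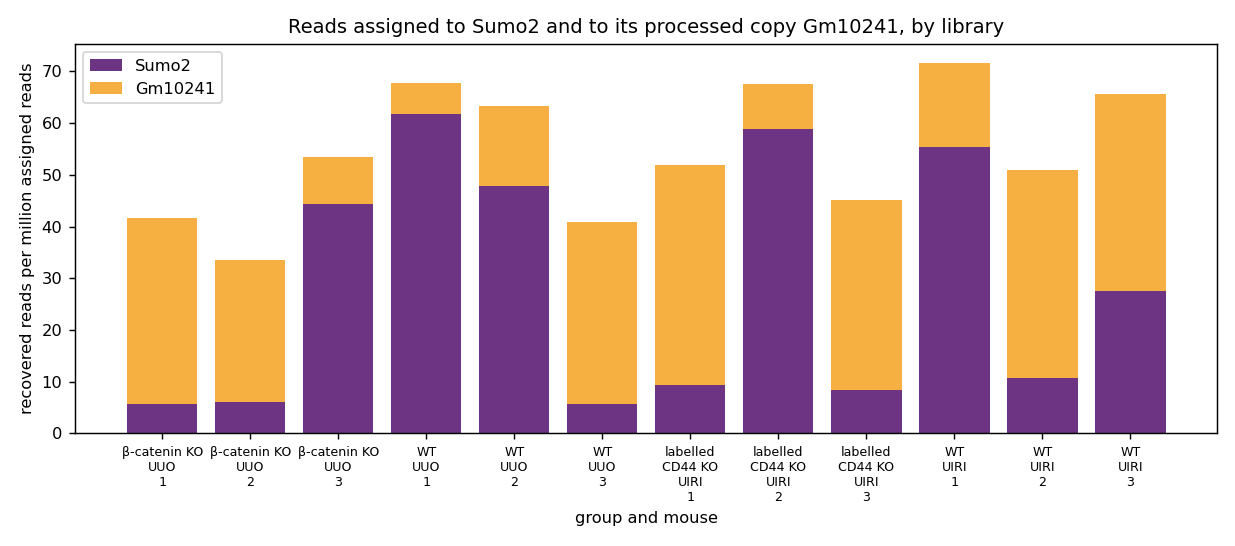
CPM (y axis, reads scaled to the library's assigned total) given to Sumo2 (purple) and stacked on them those given to Gm10241 (orange) in each of the 12 libraries (x axis). Sumo2 spans 5.70 to 61.7 and the tall purple bars carry the short orange ones.

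The study's qPCR primers for Sumo2 fall into the same stretch, and both match Gm10241 exactly. They are shown for that reason, with the Sumo3 pair for comparison, each written 5′ to 3′.
Sumo2 forward primer: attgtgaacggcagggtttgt
Sumo2 reverse primer: caactgtgcaggtgtgtctgt
Sumo3 forward primer: gaggcagattcgattccggttt
Sumo3 reverse primer: gtgtcctcatcctccatctcca
The Sumo2 pair matched 4 transcripts of Sumo2, and its primers matched transcripts of 9 and 6 other genes. The Sumo3 forward primer matched 2 other genes and the reverse primer 0. Both coding sequences are alike: of 282 aligned coding bases of Sumo2 and Sumo3, 234 (83.0%) were identical.

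Sumo3 (ENSMUSG00000020265) lies on the plus strand of chromosome 10, from 77606097 to 77618331. Gm49325, a gene model on the same strand, overlaps Sumo3 and shares 346 of its exon bases (9.45%). It holds 297 of the 2581 windows of Sumo3 (11.5%) and had 2 reads in the 12 libraries. How reads in the shared bases were counted is not given in the sources used here. Sumo3 was at 30.4, 30.9 and 26.3 FPKM in β-catenin knockout mice and 21.4, 24.2 and 19.95 FPKM in wild-type mice after UUO. The lowest knockout mouse was above the highest wild-type mouse. The means were 29.2 ± 2.52 and 21.8 ± 2.15 FPKM (SD, n = 3 each), a ratio of 1.34. The log2 fold change of 0.40 (standard error 0.12, 95% interval 0.12 to 0.69) had an unadjusted p of 0.0120 and an adjusted p of 0.0749 (limma), and so did not pass. The adjusted p was 0.0179 when both tables shared 1 estimate of the spread and 0.0494 without β-catenin knockout replicate 3. Of 16 alternatives, only these 2 passed. Leaving out 1 library gave an adjusted p of up to 0.204 (limma). The adjusted p was 0.294 with TPM, that is with each library's FPKM brought to an equal sum. There the log2 fold change was 0.20 and that of the median gene −0.19.

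Cell markers moved in the same libraries. In β-catenin knockout mice 5 of 8 proximal tubule markers were called higher and 0 lower, and 5 of 6 macrophage markers were called lower and 0 higher. The summed macrophage markers were between 371 and 439 FPKM in knockout mice and between 717 and 769 FPKM in wild-type mice. Most of the summed proximal tubule markers was Kap, at 3409 to 7727 FPKM in knockout mice and 2597 to 5688 FPKM in wild-type mice, which overlapped and was not called. The other 7 markers summed to between 558 and 1068 FPKM in knockout mice and between 260 and 285 FPKM in wild-type mice, and no proximal tubule or macrophage marker was at 0. Markers of fibroblasts and myofibroblasts had 3 of 5 lower, endothelial markers 1 of 3 lower, thick ascending limb markers 1 of 3 higher, collecting duct markers 1 of 3 tested higher, T cell markers 0 of 4 called, and the tubule injury markers Havcr1 and Lcn2 1 of 2 lower. Their part in the Sumo3 values was not tested.

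After UIRI, Sumo3 was at 24.5, 22.5 and 25.1 FPKM in the libraries labelled CD44 knockout and 22.9, 24.1 and 20.9 FPKM in wild-type mice, with overlap. The log2 fold change was 0.08 (standard error 0.09, interval −0.13 to 0.29, limma adjusted p = 0.587), and −0.05 with FPKM rescaled to TPM. The difference between both knockout effects was 0.32 for Sumo3 (standard error 0.14, limma unadjusted p = 0.0446, adjusted p = 0.356) and did not pass. Of all genes, 0.00618% passed this test of the difference, and 0 of the 8 members did. At an unadjusted p under 0.05 there was 1 member, Sumo3, against 13.6% of all genes. Voom gave 0 members at the adjusted threshold, and 1 of the 16193 genes tested. Knocked-out gene and injury changed together between the tables and cannot be told apart.

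Over all groups Sumo3 was highest in β-catenin knockout mice, whose values did not overlap those of the libraries labelled CD44 knockout, next in order, although tables were scaled separately. The other neighbours in this order overlapped. How many of all genes separate between groups of different tables was not counted. Sumo3 was 8.91, 7.97 and 1.04 times Sumo2 in β-catenin knockout mice and 0.66, 0.91 and 6.13 times in wild-type mice after UUO. The log2 ratio differed by 1.44 between them (exact permutation test, two-sided, p = 0.2, adjusted over 4 ratio tests p = 0.533, n = 3), which did not pass and carries the uncertainty of Sumo2. After UIRI it differed by 0.56 (exact permutation test, p = 0.7, adjusted p = 0.7).

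The protein-coding genes most like Sumo3 over the 12 libraries, of 7701 with at least 5 FPKM on average in each table, were Kctd2, Suds3, March2, Ncaph2 and Timm44. Likeness was the root mean square difference of log2(FPKM + 1), each gene less its mean within each table, and it was 0.05 for Kctd2 and 0.06 for the others, where Sumo3's own spread was 0.17. March2 was identified by its gene ID, as the tables give it a date-like name. For Sumo2 the nearest genes were Trpv5, Thbs2, Mmp2, Sparcl1 and Serpine2, at 0.85 to 0.90 against a spread of 1.21. None of the 7701 genes compared followed Sumo2 closely.

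**Figure D2:**
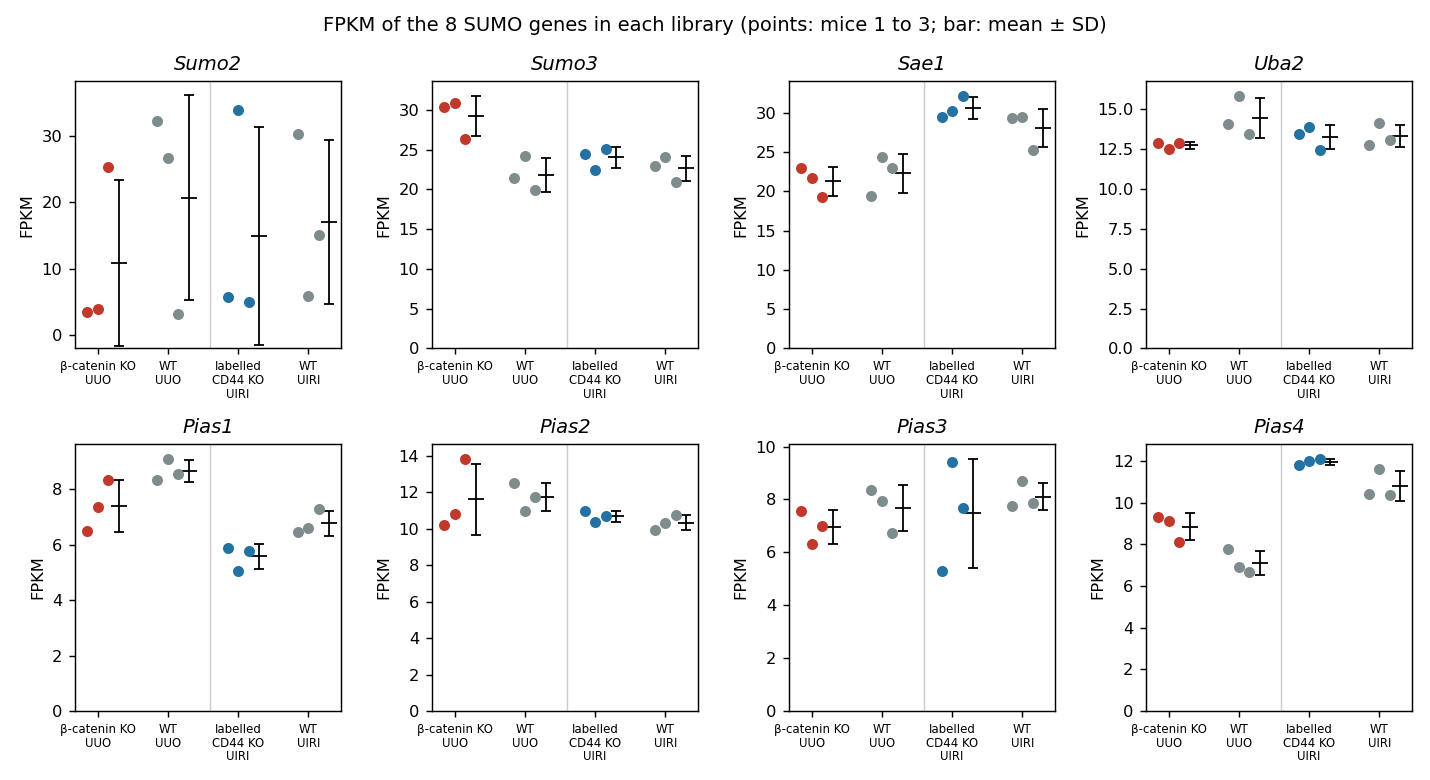
FPKM (y axis, from 0 except for Sumo2, whose SD bars reach below it) of the 8 SUMO genes in 4 groups (x axis). Points are single mice and bars the mean ± SD (n = 3); Sumo3 and Pias4 do not overlap after UUO, and Sumo2 is high and low within each group.

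Promoters were read for TCF/LEF motifs, as β-catenin acts on transcription through TCF/LEF factors. The letters CTTTGAA and CTTTGAT, which do not overlap in any member window, were searched on both strands of windows from 250 bases before to 50 after each start in RefSeq (GRCm38.p6). Windows existed for 5 of the 8 members, 8 windows in all. Of 32851 windows, 8.65% held a match, and of the members' windows 1 did, the first of Pias3, with 1 match of each motif. The first window of Sumo3 is printed because the question centers on this gene, and that of Pias3 because it holds the matches, in capitals (ATCAAAG is CTTTGAT on the other strand). Both show the 250 bases before the start.
Sumo3, chr10:77605847-77606096, plus strand: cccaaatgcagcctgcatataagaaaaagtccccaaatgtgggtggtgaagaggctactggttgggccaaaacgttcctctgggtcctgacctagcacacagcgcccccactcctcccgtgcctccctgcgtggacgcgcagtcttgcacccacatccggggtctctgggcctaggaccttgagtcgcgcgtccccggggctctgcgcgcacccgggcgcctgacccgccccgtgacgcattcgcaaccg
Pias3, chr3:96696125-96696374, plus strand: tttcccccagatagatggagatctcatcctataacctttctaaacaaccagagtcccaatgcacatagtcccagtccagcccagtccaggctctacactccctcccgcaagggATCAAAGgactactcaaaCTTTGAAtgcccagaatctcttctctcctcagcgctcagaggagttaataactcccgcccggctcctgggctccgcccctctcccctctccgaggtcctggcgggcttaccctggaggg
None of the 3 mouse Sumo3 windows held these letters, which says only that they are not in these windows. In the human promoter the study predicted 3 TCF/LEF sites. It reported the factor TCF4 at some of them by chromatin immunoprecipitation, and lower activity of a promoter reporter with β-catenin or TCF4. The human promoter was not searched here.

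The activating enzyme was followed through both subunits. Sae1 (ENSMUSG00000052833, chromosome 7, 16320234 to 16387806) was at 22.9, 21.6 and 19.3 FPKM in β-catenin knockout mice and 19.5, 24.4 and 22.9 FPKM in wild-type mice after UUO. The groups overlapped, and the log2 fold change was −0.06 (interval −0.36 to 0.24, limma adjusted p = 0.785). After UIRI it was at 29.5, 30.2 and 32.1 FPKM in the libraries labelled CD44 knockout and 29.4, 29.5 and 25.3 FPKM in the controls, which is a log2 fold change of 0.12 (interval −0.09 to 0.34, limma adjusted p = 0.427) and of −0.0065 with FPKM rescaled to TPM. All 6 mice after UIRI were above all 6 after UUO, the nearest at 25.3 and 24.4 FPKM, in tables scaled separately. The share of all genes that separate between the tables in this way was not counted.

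Uba2 (ENSMUSG00000052997, chromosome 7, 34140688 to 34169599), the catalytic subunit, was the steadiest member, with its highest value 1.27 times its lowest. It was at 12.8, 12.5 and 12.9 FPKM in β-catenin knockout mice and 14.1, 15.8 and 13.4 FPKM in wild-type mice after UUO. Here each knockout mouse was below each wild-type mouse. Its log2 fold change of −0.17 (interval −0.41 to 0.08, limma adjusted p = 0.321) did not pass. After UIRI Uba2 was at 13.4, 13.9 and 12.4 FPKM in the libraries labelled CD44 knockout and 12.7, 14.1 and 13.1 FPKM in wild-type mice, with a log2 fold change of −0.01 (interval −0.20 to 0.19, adjusted p = 0.970). Within each library Sae1 was 1.38 to 1.78 times Uba2 after UUO and 1.94 to 2.59 times after UIRI. The log2 ratio of Sae1 over Uba2 differed between knockout and wild-type mice by 0.12 after UUO and 0.14 after UIRI (exact permutation tests, two-sided, p = 0.4 and adjusted p = 0.533 in both), which did not pass.

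Of the 4 Pias ligases, which were first described as inhibitors of activated STAT factors, Pias4 (ENSMUSG00000004934, chromosome 10, 81153266 to 81167923) differed without overlap in both tables. It was at 9.33, 9.12 and 8.12 FPKM in β-catenin knockout mice and 7.77, 6.94 and 6.67 FPKM in wild-type mice after UUO. This log2 fold change of 0.28 (standard error 0.11, interval 0.03 to 0.53) had an unadjusted p of 0.0352 and an adjusted p of 0.136 (limma). The adjusted p was 0.0399 when both tables shared 1 estimate of the spread, the only 1 of 16 alternatives that passed. The log2 fold change was 0.09 with FPKM rescaled to TPM. After UIRI Pias4 was at 11.8, 11.99 and 12.1 FPKM in the libraries labelled CD44 knockout and 10.4, 11.6 and 10.4 FPKM in wild-type mice, all knockout values being higher. The log2 fold change was 0.14 (interval −0.05 to 0.32, limma adjusted p = 0.310), and 0.01 with FPKM rescaled to TPM. No neighbours overlapped in the order of the groups for Pias4, in tables scaled separately. This order ran from the libraries labelled CD44 knockout down through the UIRI controls and β-catenin knockout to the UUO controls. How many of all genes have such an order was not counted. Of all pairs of members, Sumo3 and Pias4 were most alike over the libraries, with a root mean square difference of 0.09.

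Pias1 (ENSMUSG00000032405, chromosome 9, 62878368 to 62987924) was at 6.49, 7.37 and 8.35 FPKM in β-catenin knockout mice and 8.34, 9.10 and 8.55 FPKM in wild-type mice after UUO. These overlapped by 1 mouse, with a log2 fold change of −0.21 (interval −0.48 to 0.06, limma adjusted p = 0.276). After UIRI it was at 5.89, 5.07 and 5.79 FPKM in the libraries labelled CD44 knockout, each below the 6.45, 6.60 and 7.28 FPKM of wild-type mice. The log2 fold change of −0.24 (standard error 0.09, interval −0.46 to −0.03) had an unadjusted p of 0.0329 and an adjusted p of 0.145 (limma), and did not pass.

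Pias2 (ENSMUSG00000025423) ranged from 9.93 to 13.8 FPKM and Pias3 (ENSMUSG00000028101, chromosome 3, 96696384 to 96706070) from 5.31 to 9.42 FPKM over the 12 libraries. The groups overlapped for both in both tables. The log2 fold changes after UUO were −0.03 for Pias2 (limma adjusted p = 0.918) and −0.12 for Pias3 (adjusted p = 0.528). After UIRI they were 0.04 for Pias2 (limma adjusted p = 0.740) and −0.13 for Pias3 (adjusted p = 0.674). Pias2 was at −0.08 after UIRI with FPKM rescaled to TPM.

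Counted together, 2 members had positive and 6 negative log2 fold changes after UUO, with a median of −0.09 beside 0.01 for all 16166 genes tested. At an unadjusted p under 0.05 there were 2 members, Sumo3 and Pias4, against 29.9% of all genes. At the adjusted threshold, voom on recovered reads called 0 members, beside 1232 genes higher and 1024 lower of 16166. Values did not overlap between the groups for 3 of 8 members, beside 35.5% of all genes. These were 2 members higher, beside 19.6% of all genes, and 1 lower, beside 15.9%. After UIRI 4 were positive and 4 negative, with a median of 0.02 beside 0.00 for all 16113 genes tested. There 1 member, Pias1, had an unadjusted p under 0.05, against 27.1% of all genes. At the adjusted threshold voom called 0 members, beside 941 genes higher and 711 lower of 16113. Values of 2 of 8 members did not overlap, beside 33.5% of all genes. Of these 1 was higher, beside 19.1% of all genes, and 1 lower, beside 14.5%. With FPKM rescaled to TPM, the medians of the members were −0.31 and −0.11, beside −0.19 and −0.12 for all genes.

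**Figure D3:**
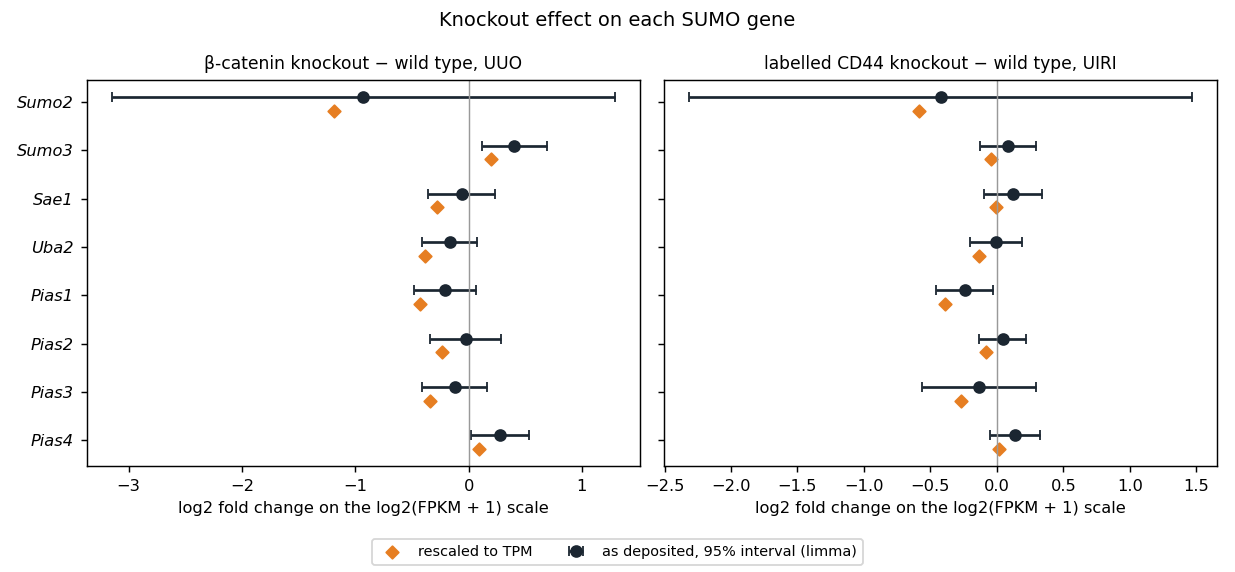
Log2 fold change on the log2(FPKM + 1) scale (x axis) for each SUMO gene (y axis), in β-catenin knockout mice after UUO (left) and mice labelled CD44 knockout after UIRI (right). Black points carry 95% intervals from limma and orange diamonds show FPKM rescaled to TPM; after UUO Sumo3 moves from 0.40 to 0.20 with rescaling and Sumo2 has the widest interval.

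The other 25 genes of the pathway were all tested. In β-catenin knockout mice after UUO 1 was called higher (6.21% of all genes), 1 lower (4.36% of all genes) and 23 did not pass, with a median log2 fold change of −0.11 beside 0.01 for all genes. The gene called higher was Mul1, a ligase of the outer mitochondrial membrane that can attach SUMO or ubiquitin. It was at 14.9, 13.1 and 11.9 FPKM in knockout mice and 8.68, 9.30 and 10.05 FPKM in wild-type mice, without overlap. This was a log2 fold change of 0.46 (standard error 0.12, limma adjusted p = 0.0491). It was 0.28 with FPKM rescaled to TPM (adjusted p = 0.207). The adjusted p was 0.0354 without β-catenin knockout replicate 3. Leaving out knockout replicate 1 or 2 lost the call (adjusted p = 0.132 and 0.123), as did leaving out wild-type replicate 1, 2 or 3 (adjusted p = 0.137, 0.132 and 0.0789).

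The gene called lower was Pml, the scaffold of nuclear bodies in which many proteins carry SUMO. It was at 10.2, 9.27 and 10.6 FPKM in β-catenin knockout mice and 13.4, 15.9 and 17.4 FPKM in wild-type mice, without overlap. This was a log2 fold change of −0.58 (standard error 0.13, limma adjusted p = 0.0308). Leaving out 1 library lost this call in 4 cases, at an adjusted p of 0.0824 and 0.0995 for knockout replicates 1 and 2, and of 0.104 and 0.0806 for wild-type replicates 2 and 3. Next by p were Rnf111, a ubiquitin ligase that reads SUMO chains, with a log2 fold change of −0.28 (limma adjusted p = 0.175), and the protease Desi1 with 0.31 (adjusted p = 0.207).

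Of the 9 SUMO proteases 2 had positive log2 fold changes after UUO, with a median of −0.12, and 4 after UIRI, with a median of −0.01. No protease passed by limma or voom.

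In the libraries labelled CD44 knockout 1 of the 25 genes was called higher (4.02% of all genes), 0 were called lower (2.19% of all genes) by limma and by voom, 4 had an unadjusted p under 0.05, beside 27.1% of all genes, and the median was 0.05 beside 0.00 for all genes. The one called was again Mul1, at 14.9, 13.5 and 14.6 FPKM in the libraries labelled knockout and 10.3, 10.7 and 10.2 FPKM in wild-type mice, without overlap. Its difference was 0.43 in log2 (standard error 0.08, limma adjusted p = 0.0347). With FPKM rescaled to TPM it was 0.32 (adjusted p = 0.0757). The call held without CD44 knockout replicate 2 (adjusted p = 0.0165). It was lost without CD44 knockout replicate 1 or 3 (adjusted p = 0.0837 and 0.135) and without wild-type replicate 1, 2 or 3 (adjusted p = 0.105, 0.0860 and 0.117). In these libraries 5 of 8 proximal tubule markers were called higher, and the 7 markers other than Kap summed to 513 to 1059 FPKM against 225 to 319 FPKM in wild-type mice. Kap itself was at 4437 to 13675 FPKM against 2672 to 3916 FPKM and was not called. Of the macrophage markers 3 of 6 were called lower, with sums of 527 to 1027 FPKM against 1468 to 1534 FPKM. T cell markers had 2 of 4 lower and fibroblast and myofibroblast markers 1 of 5 lower. The 3 thick ascending limb markers, at log2 fold changes of −0.67 to −0.55, and the collecting duct, endothelial and tubule injury markers were not called. Their part in the Mul1 values was not tested. Rangap1, the SUMO-modified activator of the Ran GTPase, had a log2 fold change of 0.28 (limma adjusted p = 0.102), Nsmce2, a ligase of the Smc5/6 complex, 0.24 (adjusted p = 0.111) and Zfp451, a ligase for SUMO2/3 chains, −0.23 (adjusted p = 0.166). Pml had −0.07 (adjusted p = 0.719).

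**Figure D4:**
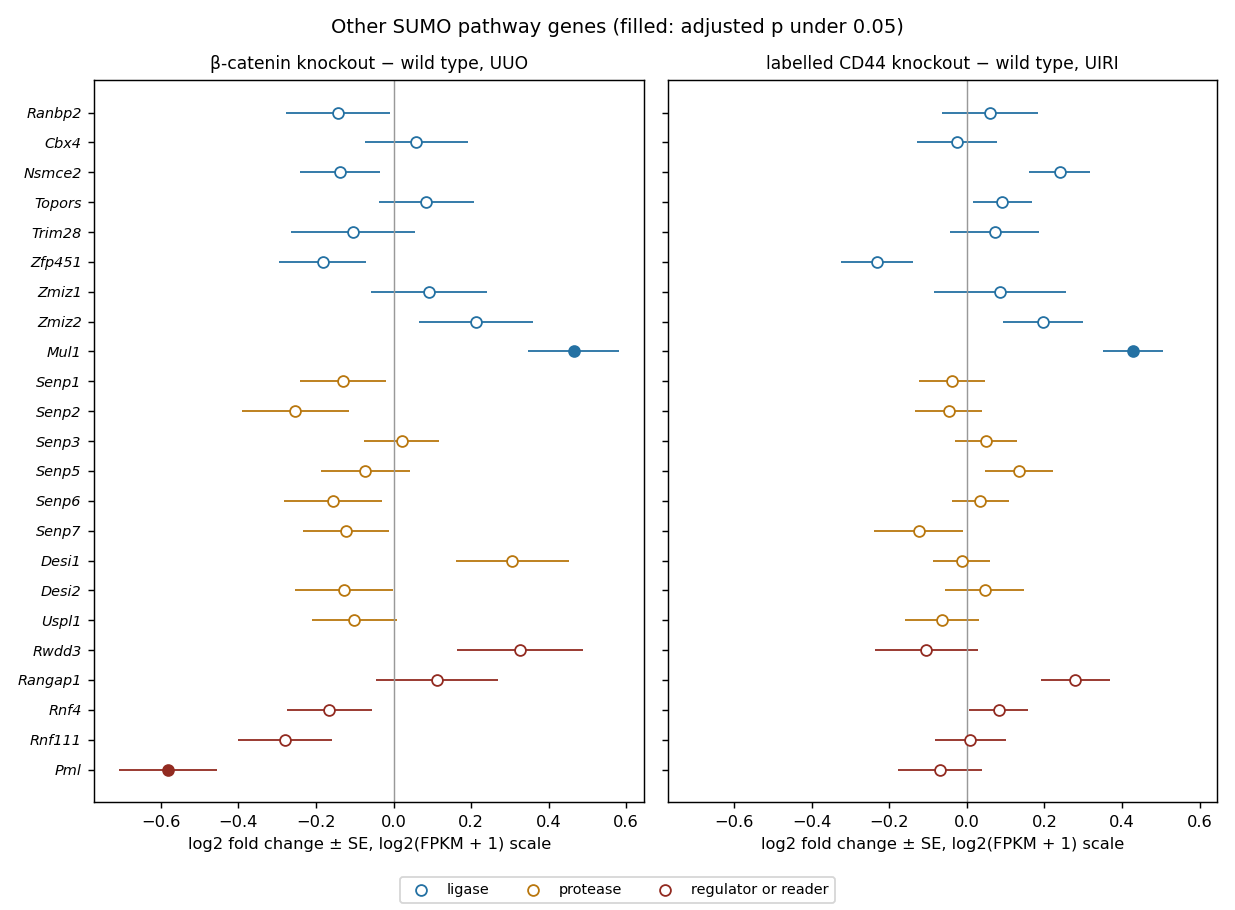
Log2 fold change ± standard error on the log2(FPKM + 1) scale (x axis) of the 23 ligases, proteases, regulators and readers among the other SUMO pathway genes (y axis) in β-catenin knockout mice after UUO (left) and mice labelled CD44 knockout after UIRI (right), colored by role. Filled points passed an adjusted p of 0.05: Mul1 in both panels, at 0.46 and 0.43, and Pml on the left, at −0.58.

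Of 13 other ubiquitin-like modifiers and activating enzymes, 0 passed in either table, with 3 after UUO and 2 after UIRI at an unadjusted p under 0.05, beside 29.9% and 27.1% of all genes. With voom on the recovered reads, Uba7, the activating enzyme of Isg15, was called lower in both tables and Isg15 after UUO. Voom called 1024 of 16166 genes lower after UUO and 711 of 16113 after UIRI. Stk11, which encodes LKB1, the kinase the study ties to Sumo3, was at 32.4, 29.3 and 23.2 FPKM in β-catenin knockout mice and 18.8, 18.4 and 21.5 FPKM in wild-type mice. These did not overlap, and the log2 fold change of 0.50 (limma adjusted p = 0.0700) did not pass. Tcf7l2, which encodes TCF4, had a log2 fold change of 0.02 (limma adjusted p = 0.924).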

How the data were processed

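RNA of 12 mouse kidneys was sequenced after Trizol extraction and an NEBNext Ultra preparation from total RNA. The authors deposited FPKM values per gene in a table for each knockout. The submitters' processing notes name HISAT2 2.0.5, featureCounts 1.5.0-p3, DESeq2 1.20.0 and GRCm38. How reads that match several genes were treated, and the strand setting of the counting, are not given in the sources used here. From the deposited FPKM and gene lengths whole reads were recovered, 100% of values within 0.01 read of a whole number. In each table the worth of 1 read followed the libraries' median-of-ratios factors, so values were tested only within a table, the difference of knockout effects excepted, which sets within-table contrasts side by side.

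FPKM was tested as log2(FPKM + 1), which understates the change of low genes, with limma 3.58.1 in R 4.3.3 (empirical Bayes with a trend), on genes that averaged 0.5 FPKM or more. P-values were adjusted by Benjamini-Hochberg over all genes tested, with a threshold of 0.05. Single ratios were compared by two-sided exact permutation tests (SciPy 1.17.1). Nothing in the labels says more of the 3 samples of a group than their number, and p-values measure the spread between them. Alternatives changed the pseudocount, filter, scaling, trend, samples in the fit and replicate block, left out each library, or used voom on recovered reads, and the sum over Sumo2 and its copies was added after seeing the data. The scripts were tested on simulated data, whose spread was set and not taken from these mice. Of 67 genes changed 1.5-fold, limma called 6 in the UUO simulation and 7 in the UIRI simulation. Of 67 changed 2-fold it called 48 and 46. Unchanged genes called were 15 and 18.

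Members and lists were chosen with earlier results of these data known. The text names all members, every gene called in the pathway and comparison lists, the 4 pathway genes of smallest p in each table, the targeted genes, Stk11 and Tcf7l2, rows marked as SUMO pseudogenes, and the 5 genes most like Sumo2 and Sumo3. Gm10241, Gm49325, Uba7 and Isg15 were named outside this rule, after their values were seen, as was Pml after UIRI. Transcripts and coordinates are from GENCODE on GRCm38, and promoters from RefSeq (GRCm38.p6). Values of 2 genes of the pathway list, which its counts include, are not reported here.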

Additional observations from a re-analysis of the deposited data

How the results depend on the processing

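Of 609 recomputed values under alternatives, 542 kept their direction and their side of the threshold, 20 counts moved by over 1.5 times, 22 values lost a call, 6 gained one and 19 changed sign. Where no cause is named, the cause was not tested. With all 4 groups in 1 fit, 2 members were called after UUO, Sumo3 at a log2 fold change of 0.40 and Pias4 at 0.28. That fit called 1888 of all 16193 genes tested higher and 1419 lower. Leaving out 1 library gave 0 to 1 members called after UUO, with Sumo3 between 0.34 and 0.48. Of the other pathway genes after UUO, 0 were called without a filter on low values, and 1 each under TPM, under the replicate block and with no trend. After UIRI 0 were called without a filter, with TPM and with the replicate block. Leaving out 1 library gave 0 to 2 calls in either table. With FPKM rescaled to TPM the sign turned for Tcf7l2 after UUO (−0.17) and for Sumo3 (−0.048), Sae1 (−0.0065) and Pias2 (−0.083) after UIRI. Leaving out 1 library spanned 0 for Sae1 (−0.15 to 0.0070), Pias2 (−0.15 to 0.055) and Tcf7l2 (−0.045 to 0.078) after UUO, for Sumo2 (−1.24 to 0.10), Uba2 (−0.038 to 0.035) and Pias3 (−0.30 to 0.064) after UIRI, and for the difference of Sumo2 effects (−1.45 to 0.31).

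Over all genes, 1004 were called higher and 705 lower after UUO, and 648 and 353 after UIRI. With TPM the calls were 578 higher and 1178 lower after UUO, and 220 and 473 after UIRI. With all 4 groups in 1 fit 1888 were higher and 1419 lower after UUO. Leaving out 1 library after UUO called 130 to 1631 higher and 98 to 818 lower, the lowest without wild-type replicate 2 and the highest without β-catenin knockout replicate 3. The replicate block called 992 higher and 675 lower after UUO. After UIRI it called 0 and 0, and leaving out 1 library called 0 to 5 in each direction, except 1417 and 763 without CD44 knockout replicate 2. Same-numbered mice deviated together with correlations of 0.080, 0.198 and 0.043 after UUO and −0.143, −0.025 and −0.029 after UIRI, and not every mouse correlated best with its own number, so the numbers were not taken to pair the mice. With 3 mice a group, the 95% intervals of the 8 members set which differences these data leave possible.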
